A study of Mus musculus with 6 samples.

Results

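The insulin-like growth factor axis was read here as 9 genes, the rows of the deposited count table whose symbol was *Igf1*, *Igf1r*, *Igf2r*, *Igfbp2*, *Igfbp3*, *Igfbp4*, *Igfbp5*, *Igfbp6* or *Igfbp7*, out of 44788 symbols. All 9 were found in the table and all 9 had enough counts to be tested. Bulk RNA-seq, in which all cell types of a tissue are read as 1 RNA pool, was performed on tail tendons of 3 wild-type (WT) and 3 Mkx-/- mice of the C57BL/6 strain, 3 weeks old by the sample labels. *Mkx* encodes Mohawk, a homeobox transcription factor of tendon. The labels name no treatment for either group, and the study's text gives their age as slightly higher than the labels do. Nothing in the labels says whether a library came from 1 mouse or from pooled tendons, so the p-values measure the spread between these libraries.

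IGF1 is a secreted growth factor made in liver under growth hormone and also made locally in connective tissues, where it drives proliferation and matrix synthesis, collagen in tendon among it. It signals through IGF1R, a receptor tyrosine kinase that feeds the PI3K-Akt and MAPK pathways, while IGF2R, which has no kinase, takes IGF2 and lysosomal enzymes tagged with mannose 6-phosphate into the cell. The IGF-binding proteins IGFBP2 to IGFBP6 hold IGFs with high affinity and so limit or prolong their access to the receptor, and IGFBP7 is a related secreted protein that binds IGFs weakly and is abundant in vessel walls.

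Of the 9 genes, only *Igfbp7* differed between the genotypes in edgeR's quasi-likelihood test at an adjusted p under 0.05. It was 2.45-fold higher in Mkx-/- tendons. *Igfbp3* and *Igf2r* were lower, by 2.38-fold and 1.38-fold. Neither passed that test, although both passed in DESeq2, the tool the study used, where 8.45% of all genes did. The ligand *Igf1*, its receptor *Igf1r* and the most counted binding protein, *Igfbp5*, did not pass in either tool.

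The libraries held 10835070 to 14160301 counts. Levels are given as normalized CPM, the count of a gene scaled to a common library total after TMM correction in edgeR. The tendon genes *Tnmd* and *Scx* were counted in all 6 libraries. *Tnmd* had 912, 1166 and 1171 CPM in WT and 1292, 886 and 1016 CPM in Mkx-/- libraries. *Scx* had 17.3, 40.2 and 53.4 CPM in WT and 19.4, 13.3 and 17.5 CPM in Mkx-/- libraries. The log2 fold change of *Scx* was -1.14 (adjusted p = 0.106 in edgeR and 0.0146 in DESeq2). *Mkx* itself had a mean level of 138 ± 4.92 CPM in the WT group and 45.7 ± 9.68 CPM in the Mkx-/- group (SD, n = 3), so reads on the targeted gene remained, and the counts do not show from which exons. Y-linked counts were found in 1 library, WT replicate 3, so the *Igfbp7* result is also given without that library. WT replicate 1 stood farthest from its group, with a chi-square per degree of freedom of 34.8 and 36.4 against the other 2 WT libraries, where those differed from each other by 7.59.

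The sequences just upstream of the annotated starts of *Igfbp7* and *Igfbp3* are shown because these are the axis genes with the largest differences between the genotypes, in opposite directions. *Igfbp7* spans bases 77778265 to 77837070 of chromosome 5 and *Igfbp3* spans 7106089 to 7113926 of chromosome 11 (mm9, both on the minus strand). Each sequence is the 250 bases before the start in RefSeq (GRCm38.p6), found as an exact and single match on its mm9 chromosome, at chr5:77837071-77837320 and chr11:7113927-7114176, and is written 5′ to 3′ on the gene's strand. Capitals mark GC boxes (GGGCGG on either strand), the binding sequence of Sp1-type factors, and TATA boxes (TATAAA on either strand).
*Igfbp7*: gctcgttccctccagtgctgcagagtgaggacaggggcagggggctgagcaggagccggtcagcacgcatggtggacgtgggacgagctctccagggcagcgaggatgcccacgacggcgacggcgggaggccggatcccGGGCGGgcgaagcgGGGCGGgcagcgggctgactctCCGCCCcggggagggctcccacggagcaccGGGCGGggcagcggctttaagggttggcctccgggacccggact
*Igfbp3*: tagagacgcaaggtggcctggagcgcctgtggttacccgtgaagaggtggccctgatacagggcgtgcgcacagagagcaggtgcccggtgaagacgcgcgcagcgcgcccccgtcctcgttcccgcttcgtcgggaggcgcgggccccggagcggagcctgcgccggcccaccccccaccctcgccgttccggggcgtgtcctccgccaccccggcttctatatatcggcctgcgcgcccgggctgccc
The *Igfbp7* window held 4 GC boxes and no TATA box, and the *Igfbp3* window held neither of these exact letter strings. The *Igfbp3* window has the letters tatatat near its end, which the search for TATAAA did not count, so a TATA-like stretch is not excluded there. Of 32851 RefSeq windows of this length, 32.7% held a GC box and 12.4% a TATA box. Both windows were rich in G and C, at 74.0% and 73.2%, where the median window had 52.4%. Among the other axis genes, the windows of *Igf1r* and *Igf2r* held 2 and 3 GC boxes, and 1 of the 2 *Igfbp2* windows held 3. Those of *Igfbp4* and *Igfbp6* held 1 TATA box each. Its first base was at -28 from the start in *Igfbp4* and at -148, on the opposite strand, in *Igfbp6*. A match of letters is a description of these windows and not a measured binding site.

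**Figure D1:**
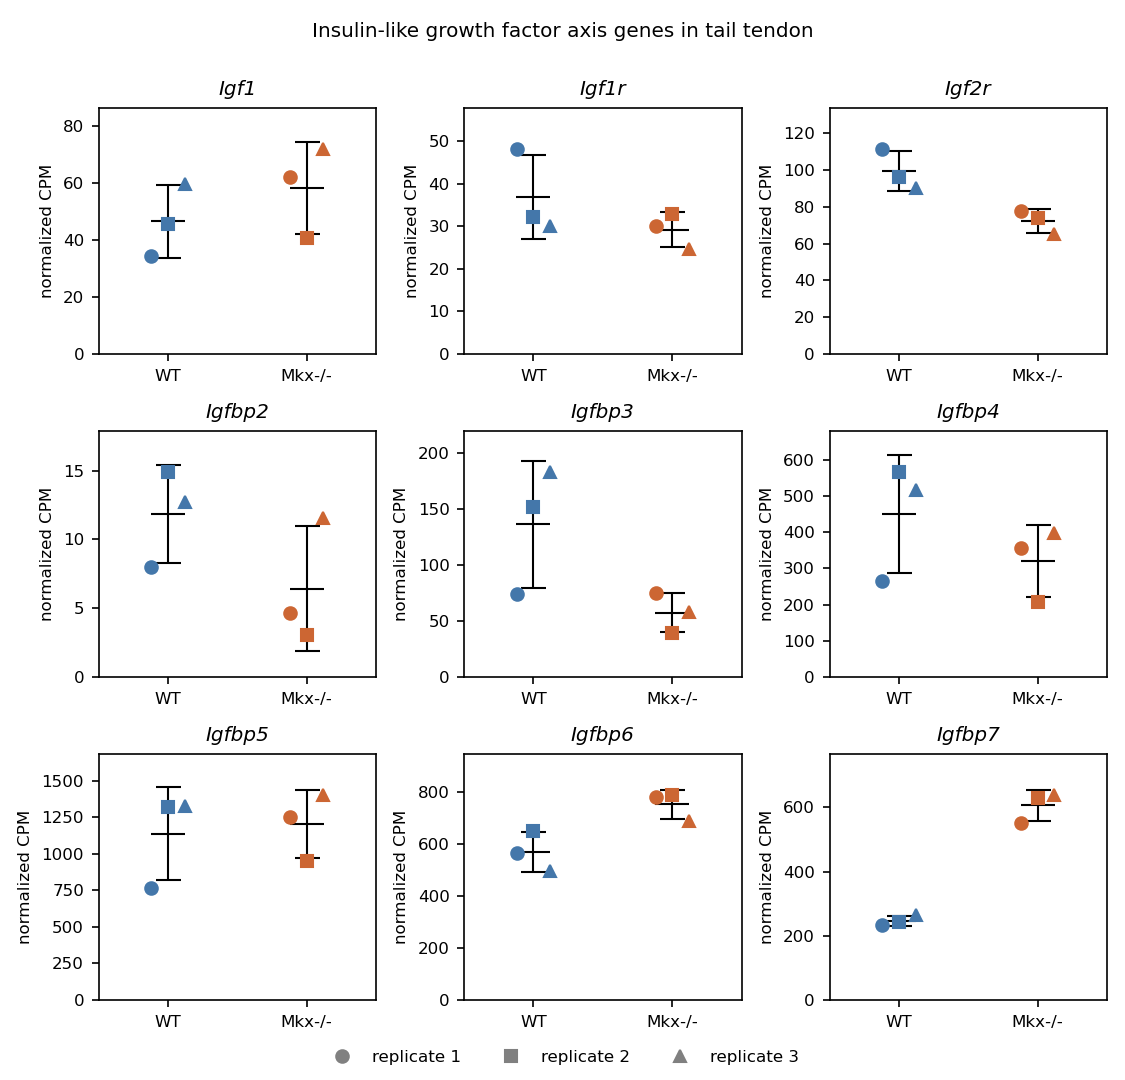
Normalized CPM (vertical axes, starting at 0, a scale of its own for each gene) of the 9 genes in the 3 WT (blue) and 3 Mkx-/- (orange) libraries, with replicate numbers as symbols and the group mean ± SD in black. The groups are apart for *Igf2r*, *Igfbp6* and *Igfbp7* and overlap for the other 6 genes.

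The ligand *Igf1*, on chromosome 10 from 87321010 to 87399792, was measured at 34.3, 45.4 and 59.7 CPM in the WT libraries and 61.8, 40.5 and 71.9 CPM in the Mkx-/- libraries. The groups overlapped, since Mkx-/- replicate 2 lay below WT replicates 2 and 3. The log2 fold change was 0.32 (95% interval -0.26 to 0.90, adjusted p = 0.503 in edgeR), so the interval holds a rise of that upper size as well as no change. *Igf1* was not tested at the level of its splice forms, which the counts per gene do not separate.

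The receptors were both lower on average in Mkx-/- tendons. *Igf1r*, on chromosome 7 from 75097713 to 75371484, had 48.3, 32.2 and 30.2 CPM in WT and 30.0, 32.9 and 24.8 CPM in Mkx-/- libraries. The groups overlapped, and without the high WT replicate 1 the log2 fold change went from -0.34 (95% interval -0.80 to 0.12, adjusted p = 0.370 in edgeR) to -0.094. *Igf2r*, a minus-strand gene spanning 12875272 to 12962530 of chromosome 17, had 112, 96.2 and 90.4 CPM in WT and 77.7, 73.9 and 65.2 CPM in Mkx-/- libraries. Every Mkx-/- library was below every WT library. The log2 fold change of *Igf2r* was -0.46 (95% interval -0.76 to -0.16), and the adjusted p was 0.0823 by edgeR and 0.0430 by DESeq2. *Igf2r* was past the threshold in 1 of 15 alternative settings, DESeq2, and kept its sign in all 15. *Airn*, a non-coding RNA annotated on the opposite strand over *Igf2r*, had 17 to 37 counts per library against 823 to 1418 for *Igf2r*, and shared no exonic base with it. The count of *Igf1r* per count of *Igf2r*, which no scaling changes, was 0.334 to 0.432 in WT and 0.380 to 0.445 in Mkx-/- libraries, and overlapped.

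*Igfbp7* had 234, 244 and 265 CPM in the WT libraries and 551, 628 and 640 CPM in the Mkx-/- libraries. The lowest Mkx-/- library stood more than 2 times above the highest WT library, and the values within each group lay close together, with coefficients of variation of 6.32% and 7.93%. Among 10295 genes averaging 5 CPM or more, the median coefficient of variation was 13.8% for WT and 11% for Mkx-/- libraries. Those genes were not matched to *Igfbp7* in level, and counting noise is larger in genes with fewer counts. The log2 fold change of *Igfbp7* was 1.29 (standard error, SE, 0.13, 95% interval 0.99 to 1.59, adjusted p = 0.00189 in edgeR). It passed in DESeq2 as well (log2 fold change 1.28, adjusted p = 1.97e-19). Among all 14550 genes tested, 5.44% passed the same threshold in edgeR, 3.18% as higher in Mkx-/- tendons, against 1 of the 9 axis genes. Leaving out each library in turn gave log2 fold changes of 1.25 to 1.33, all past the threshold, with 1.33 (adjusted p = 0.0144 in edgeR) without WT replicate 3. The share of all genes past the threshold in those fits was 6.59%, 1.78% and 1.64% without WT replicates 1, 2 and 3, and 4.03%, 2.23% and 2.36% without Mkx-/- replicates 1, 2 and 3. *Igfbp7* was also past it under RLE scaling (5.46% of all genes), upper-quartile scaling (5.44%), total count scaling (10.7%), a filter of 10 counts in every library (5.31%), a robust fit (5.53%), removal of skeletal muscle genes (5.55%), the replicate number as a block (2.98%) and an added log2 fold change beyond 1 (3.22%). Removing the muscle genes leaves the counts of *Igfbp7* unchanged, so that setting cannot show the part of muscle tissue in them. *Polr2b*, a gene for an RNA polymerase II subunit on the opposite strand, shares 85 annotated exonic bases with *Igfbp7*. *Polr2b* had 22.7 to 33.2 CPM, and its log2 fold change was -0.30 (adjusted p = 0.238 in edgeR).

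Marker lists of endothelial, Schwann and mural cells are given beside *Igfbp7*, and the other marker lists, which include rising and falling ones, are given at the end. Among those, the sums for skeletal muscle, cartilage, osteoblasts and epidermis were higher in every Mkx-/- library than in every WT library. The sums for macrophages and leukocytes and for tendon were lower in every Mkx-/- library, and the adipocyte sums overlapped. The summed level of 12 endothelial markers was 93.6 to 117 CPM in WT and 160 to 217 CPM in Mkx-/- libraries, with 10 of the 12 higher. By edgeR 1 of them passed, *Erg*, with 6.78, 8.44 and 9.69 CPM in WT and 44.1, 37.1 and 26.9 CPM in Mkx-/- libraries. *Erg* made up a large part of the summed rise in Mkx-/- replicates 1 and 2. *Pecam1*, *Cdh5* and *Vwf* were highest in Mkx-/- replicate 3, *Pecam1* with 8.88, 9.27 and 27.5 CPM in the Mkx-/- libraries against 5.45 to 7.26 CPM in WT. The lower markers were *Esam* and *Emcn*, with log2 fold changes of -0.32 and -0.26. *Tek* was nearly unchanged, with a log2 fold change of 0.019 (adjusted p = 0.960 in edgeR). Of the 12 markers, 8 were higher at an unadjusted p under 0.05 in edgeR, which 22.6% of all genes met in either direction, 10.1% as lower. By DESeq2 4 passed as higher, against 8.45% of all genes in either direction, 3.58% as lower. The summed level of 7 Schwann cell markers was 4502 to 5785 CPM in WT and 6832 to 12505 CPM in Mkx-/- libraries, with all 7 higher. By edgeR 0 of these 7 passed at the adjusted threshold and 7 at an unadjusted p under 0.05, and by DESeq2 7 passed. The sum of 8 mural cell markers was 175 to 217 CPM in WT and 205, 169 and 788 CPM in the Mkx-/- libraries, so that only Mkx-/- replicate 3 was high. By edgeR 0 of these 8 passed and 3 had an unadjusted p under 0.05, and by DESeq2 1 passed. Without Mkx-/- replicate 3 the log2 fold change of *Igfbp7* was 1.25 (adjusted p = 0.0112 in edgeR). The part of the endothelial, Schwann cell and mural cell markers in the *Igfbp7* result was not tested, and in bulk RNA fewer or more cells of a type cannot be told apart from less or more RNA per cell.

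The 5 genes whose profile over the 6 libraries was most like that of *Igfbp7*, by the root-mean-square difference of centred log2 levels among 10294 genes, were *Ecscr* at 0.088, *Rell1* at 0.10, *Baiap2* at 0.12, *Atp1b2* at 0.12 and *Stard10* at 0.14. Their fitted log2 fold changes were 1.43, 1.21, 1.14, 1.08 and 1.15. The likeness is over 6 libraries and includes the difference between the genotypes.

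**Figure D2:**
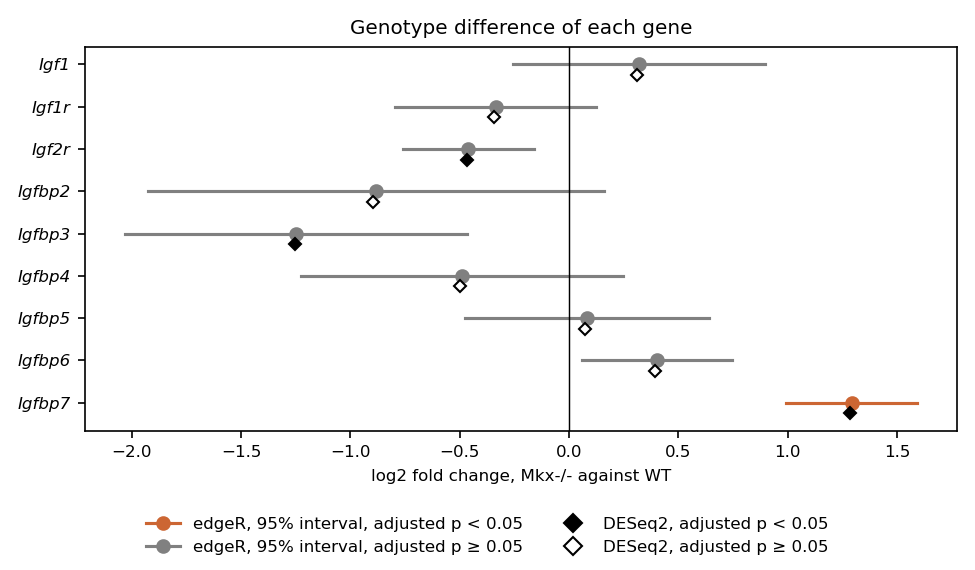
Log2 fold change (horizontal axis, Mkx-/- against WT) of each gene from edgeR with its 95% interval (circles and lines, orange where the adjusted p was under 0.05) and from DESeq2 (diamonds, filled where the adjusted p was under 0.05). *Igfbp7* is past the threshold in both tools, and *Igfbp3* and *Igf2r* only in DESeq2.

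*Igfbp3*, the main carrier of IGFs in blood and also made by connective tissue cells, had 73.8, 151 and 183 CPM in WT and 74.7, 39.5 and 57.8 CPM in Mkx-/- libraries. WT replicates 2 and 3 were more than 2 times every Mkx-/- library, and WT replicate 1 lay just below the highest of them, so the groups overlapped. The log2 fold change of *Igfbp3* was -1.25 (SE 0.34, 95% interval -2.03 to -0.47), and the adjusted p was 0.0734 by edgeR and 0.00208 by DESeq2, where 3.58% of genes passed as lower in Mkx-/- tendons. It also passed in edgeR without a filter on low counts (adjusted p = 0.00316, with 6.07% of all genes past the threshold there) and without WT replicate 1 (log2 fold change -1.55, adjusted p = 0.00736, with 6.59% of all genes past it). It was not past the threshold in the remaining 12 settings, where the adjusted p reached 0.195, and its log2 fold change stayed between -1.55 and -0.98 over all 15.

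The binding proteins whose genes sit next to these in pairs were also measured. *Igfbp2* and *Igfbp5* lie tail to tail on chromosome 1, with 5457 bases and no other annotated gene between them, and *Igfbp1* and *Igfbp3* lie likewise on chromosome 11 with 3539 bases between them. *Igfbp1* had no count in any library. *Igfbp2*, the least abundant of the 6 binding proteins, had 7.96, 14.9 and 12.7 CPM in WT and 4.67, 3.02 and 11.6 CPM in Mkx-/- libraries, and only Mkx-/- replicate 3 reached into the WT range. Its log2 fold change was -0.88 (95% interval -1.93 to 0.16, adjusted p = 0.298 in edgeR), and it ran from -0.53 without Mkx-/- replicate 2 (adjusted p = 0.541) to -1.63 without Mkx-/- replicate 3 (adjusted p = 0.0567). Its neighbour *Igfbp5*, which binds to extracellular matrix, had 769, 1323 and 1324 CPM in WT and 1254, 954 and 1404 CPM in Mkx-/- libraries. The groups of *Igfbp5* overlapped widely, and the log2 fold change was 0.080 (95% interval -0.48 to 0.64, adjusted p = 0.886 in edgeR).

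*Igfbp4*, an inhibitor of IGF action that is cleaved by the protease PAPP-A, lies on chromosome 11 from 98902558 to 98913969. It had 264, 568 and 518 CPM in WT and 358, 208 and 397 CPM in Mkx-/- libraries, with a log2 fold change of -0.49 (95% interval -1.22 to 0.25, adjusted p = 0.421 in edgeR). The low WT library was replicate 1 and the low Mkx-/- library replicate 2, so the groups overlapped. *Igfbp6*, which prefers IGF2 to IGF1, lies on chromosome 15 from 101974793 to 101979942 and had 563, 649 and 495 CPM in WT and 779, 789 and 687 CPM in Mkx-/- libraries. Every Mkx-/- library of *Igfbp6* was above every WT library. Its log2 fold change of 0.40 (95% interval 0.059 to 0.74) did not pass the threshold in edgeR (adjusted p = 0.157) or DESeq2 (adjusted p = 0.10), and it passed only where libraries were scaled by total count (log2 fold change 0.65, adjusted p = 0.0301), a scaling that moved the median of all genes by 0.25.

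Counted over the axis, 4 genes had a positive and 5 a negative log2 fold change, with a median of -0.34, where the median over all genes tested was -0.0037. At an unadjusted p under 0.05 in edgeR, 2 were lower and 2 higher in Mkx-/- tendons, where 22.6% of all genes passed, 10.1% as lower. Groups without overlap were found for 3 of the 9 genes, which is 33.3%, and for 28.2% of all genes tested, so the axis as a whole did not stand out by this count.

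WT replicate 1 was the lowest WT library for 6 of the 9 genes, namely *Igf1*, *Igfbp2*, *Igfbp3*, *Igfbp4*, *Igfbp5* and *Igfbp7*, and the highest for *Igf1r* and *Igf2r*. Over the 10295 genes averaging 5 CPM or more it was the lowest WT library for 38.0%. Mkx-/- replicate 2 was the lowest Mkx-/- library for *Igf1* and for *Igfbp2* to *Igfbp5*, and over those 10295 genes it was the lowest for 35.1%. For *Igf1*, *Igfbp2*, *Igfbp3*, *Igfbp4* and *Igfbp5*, the fold changes without WT replicate 1 and without Mkx-/- replicate 2 therefore lie on opposite sides of the value from all libraries. This follows from leaving out the lowest library of either group and is not a further result.

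**Figure D3:**
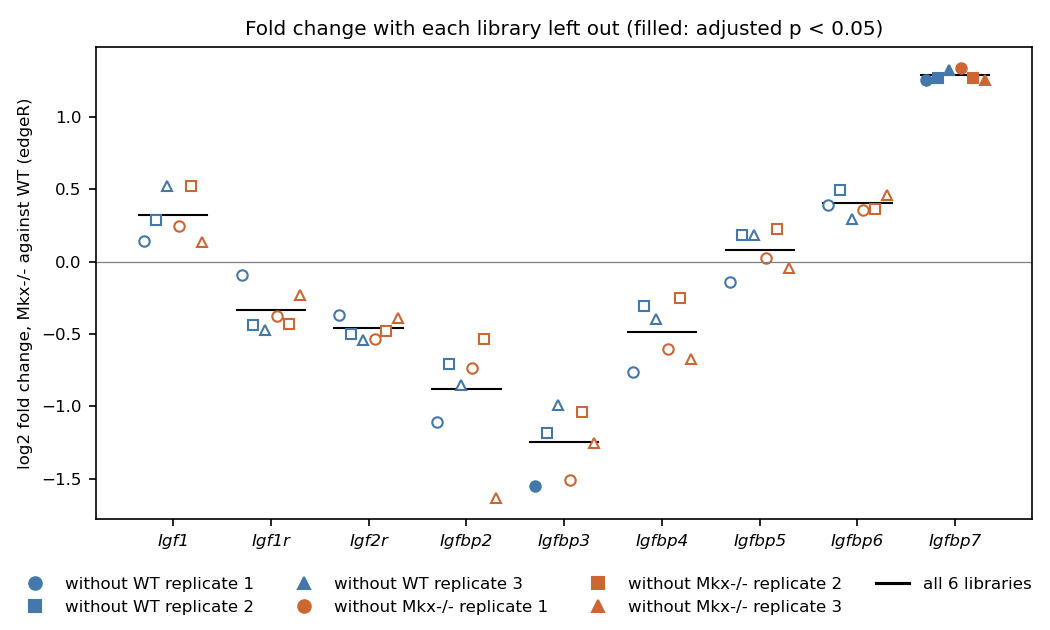
Log2 fold change (vertical axis, Mkx-/- against WT, edgeR) of each gene with all 6 libraries (black line) and with each library left out (symbols, filled where the adjusted p was under 0.05). *Igfbp7* stays between 1.25 and 1.33 and past the threshold throughout, *Igfbp3* is past it only without WT replicate 1, and *Igfbp5* changes sign.

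To compare levels between genes, normalized CPM was divided by the length of the annotated exons in kilobases (CPM per kb). On this scale *Igfbp6* was the most abundant axis transcript in WT tendons, at 512 ± 69.5 CPM per kb (SD, n = 3). It was followed by *Igfbp7* at 204 ± 12.9, *Igfbp4* at 191 ± 68.9 and *Igfbp5* at 190 ± 53.3 CPM per kb, whose WT libraries overlapped. *Igfbp3* came next at 43.5 ± 18.0 CPM per kb and did not overlap with its neighbours in the order. *Igf2r* at 10.5 ± 1.17, *Igf1r* at 8.24 ± 2.22, *Igfbp2* at 6.43 ± 1.93 and *Igf1* at 4.69 ± 1.28 CPM per kb were the lowest, and the WT ranges of each neighbouring pair overlapped. Within a library, *Igf2r* was above *Igf1r* in 3 of 3 WT and 3 of 3 Mkx-/- libraries, and *Igfbp2* was above *Igf1* in 3 of 3 WT and 0 of 3 Mkx-/- libraries. In Mkx-/- tendons *Igfbp7* stood at 500 ± 39.7 CPM per kb, next to *Igfbp6* at 676 ± 50.3, and above *Igfbp5* and *Igfbp4* in all 3 libraries. The order depends on the lengths used. With coding length in place of exon length, 6 of the 9 genes changed rank in WT, and *Igfbp5* came first.

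Within a library, the share that each binding protein took of the summed CPM per kb of all 6 was then computed. The share of *Igfbp7* was 20.0%, 15.4% and 18.7% in WT and 29.5%, 34.8% and 33.6% in Mkx-/- libraries. *Igfbp4* took 11.6%, 18.5% and 18.8% in WT and 9.82%, 5.91% and 10.7% in Mkx-/- libraries, and *Igfbp3* 2.44%, 3.71% and 5.01% against 1.55%, 0.848% and 1.17%. The genotypes did not overlap in the shares of *Igfbp2*, *Igfbp3*, *Igfbp4* and *Igfbp7*, and overlapped in those of *Igfbp5* and *Igfbp6*. Shares within a library sum to a fixed total, so a rise of *Igfbp7* alone lowers the others, and no test was made of them. The count of *Igfbp7* per count of *Igfbp3*, which depends on neither scaling nor length, was 3.17, 1.61 and 1.45 in WT and 7.39, 15.9 and 11.1 in Mkx-/- libraries. The ratio to *Igfbp5*, whose level did not differ between the genotypes by more than its spread, was 0.305, 0.184 and 0.200 in WT and 0.440, 0.659 and 0.456 in Mkx-/- libraries. The ratio of *Igfbp7* to *Igfbp6* was 0.376 to 0.535 in WT and 0.708 to 0.931 in Mkx-/- libraries. None of these ratios overlapped between the genotypes. All of them have *Igfbp7*, whose own groups were apart, as numerator, so they restate its difference and are not separate support for it. How often such ratios are apart over all genes was not computed.

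**Figure D4:**
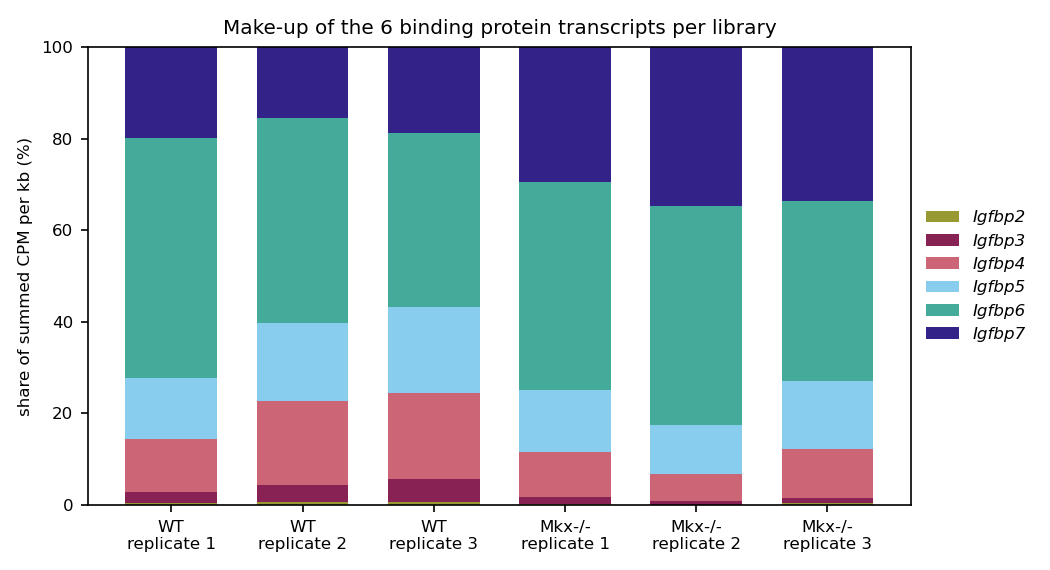
Share (vertical axis, %) of each of the 6 binding protein transcripts in their summed CPM per kb of exon, as 1 stacked bar per library. *Igfbp7* (dark blue) takes 15.4% to 20.0% in the WT bars and 29.5% to 34.8% in the Mkx-/- bars.

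The other genes of the pathway were read from 7 lists of 64 genes, of which 53 had enough counts to be tested. By edgeR's test 2 of the 53 were higher and 1 lower in Mkx-/- tendons, against 3.18% and 2.26% of all genes tested in those directions. The median log2 fold change over the 53 was -0.068. *Stat5b* and *Stat5a*, transcription factors that carry the growth hormone signal to the *Igf1* gene, were higher. *Stat5b* had 61.6, 52.2 and 48.7 CPM in WT and 101, 96.1 and 85.8 CPM in Mkx-/- libraries, a log2 fold change of 0.80 (SE 0.13, adjusted p = 0.0157 in edgeR). *Stat5a* had 21.7, 20.6 and 20.7 CPM in WT and 43.2, 30.8 and 30.7 CPM in Mkx-/- libraries, with a log2 fold change of 0.73 (SE 0.16, adjusted p = 0.0385 in edgeR). In both genes the 2 groups were apart. Leaving out libraries ended some calls, since *Stat5b* passed in 2 and *Stat5a* in 1 of 6 when each library was omitted in turn, with adjusted p up to 0.0779 (without WT replicate 2) and 0.128 (without WT replicate 3). The log2 fold changes in those fits were 0.71 to 0.90 for *Stat5b* and 0.53 to 0.82 for *Stat5a*. These paralogs are close in sequence, so reads could have been split between them. The other 5 genes of the growth hormone list did not pass. Among them the receptor gene *Ghr* had a log2 fold change of -0.56 (adjusted p = 0.0985 in edgeR), and *Socs3*, a feedback inhibitor of JAK-STAT signaling, one of -0.57 (adjusted p = 0.0750 in edgeR).

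*Foxo1*, a transcription factor that Akt keeps out of the nucleus, was the only called gene of the 24 in the PI3K-Akt-mTOR-FoxO list. It had 124, 108 and 111 CPM in WT and 77.9, 84.4 and 69.5 CPM in Mkx-/- libraries. Its log2 fold change was -0.57 (SE 0.13, adjusted p = 0.0404 in edgeR), and it did not pass when any of the 6 libraries was omitted (adjusted p 0.0517 without WT replicate 1 to 0.147 without Mkx-/- replicate 3), with log2 fold changes of -0.63 to -0.50. The remaining 23 genes of this list did not pass. Of the 24, 19 had a log2 fold change below 0, with a median of -0.095, where 7342 of all 14550 genes did. At an unadjusted p under 0.05 in edgeR 9 were lower and 1 higher, where 10.1% of all genes were lower, and by DESeq2 2 were lower. Of the 10 tested receptor adaptors 0 passed in edgeR, where 1 was higher and 3 lower at an unadjusted p under 0.05, and by DESeq2 1 was higher and 2 lower. The adaptor *Irs1* had a log2 fold change of -0.54 (adjusted p = 0.0834 in edgeR), and *Grb10*, an imprinted inhibitor of insulin and IGF receptor signaling, one of 0.66 (adjusted p = 0.0649 in edgeR). With DESeq2 3 of the 53 genes were higher and 7 lower, *Irs1*, *Grb10*, *Ghr* and *Socs3* among them, where 8.45% of all genes passed, 3.58% as lower.

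Of the other ligands, receptors and binding proteins, *Igf2* had 18.9, 56.0 and 57.2 CPM in WT and 116, 53.8 and 124 CPM in Mkx-/- libraries. Its groups overlapped through Mkx-/- replicate 2, and the log2 fold change of 1.15 (SE 0.44) did not pass (adjusted p = 0.164 in edgeR). *Igf2* passed without a filter beyond 1 count and with total count scaling, where 6.07% and 10.7% of all genes did. The insulin receptor gene *Insr* had a log2 fold change of -0.48 (adjusted p = 0.127 in edgeR). *Kazald1*, an IGFBP-related protein gene, had 50.7, 99.4 and 90.1 CPM in WT and 46.3, 25.6 and 38.1 CPM in Mkx-/- libraries, with a log2 fold change of -1.13 (adjusted p = 0.0611 in edgeR, and past the threshold in DESeq2). The 6 other genes of that list, the insulin genes and *Igfbp1* among them, had too few counts to be tested. Of the IGFBP proteases and their inhibitors, *Pappa*, *Pappa2* and *Stc1* had too few counts, and *Htra1*, which cleaves IGFBP5, was abundant and did not pass (log2 fold change -0.22, adjusted p = 0.499 in edgeR).

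**Figure D5:**
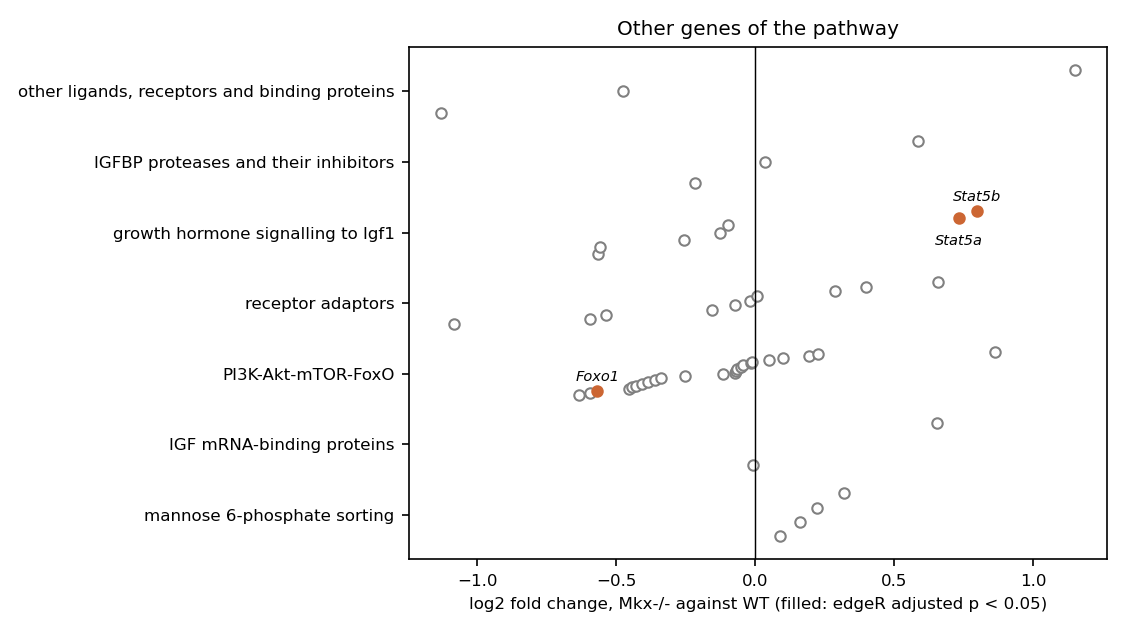
Log2 fold change (horizontal axis, Mkx-/- against WT, edgeR) of the 53 tested genes in 7 lists of the pathway (rows, genes spread vertically by value), filled where the adjusted p was under 0.05. *Stat5a*, *Stat5b* and *Foxo1* are the 3 filled points.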

How the data were processed

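The authors extracted RNA from tail tendons with TRIzol, sequenced libraries of the Ion Total RNA-Seq Kit on the Ion Proton system, trimmed adaptors, dropped reads of low quality and mapped the rest to mm9 with MapSplice. The authors deposited counts per gene symbol, unnormalized and whole. The counting program, its annotation and its treatment of strand and of multiply mapped reads are not given in the sources used here, so close paralogs and genes on opposite strands can share reads. Of 44788 symbols, 19011 had 0 counts in every library, and 0 columns were left unused.

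From the deposited counts, edgeR 4.0.16 (R 4.3.3) gave normalized CPM and fold changes (TMM, filterByExpr, quasi-likelihood fit on genotype alone, prior count 0.125, Benjamini-Hochberg adjustment over 14550 genes). Standard errors are the log2 fold change over the root of F. DESeq2 1.42.0 was the alternative tool here. A gene was called here at an adjusted p under 0.05. The study itself called genes with DESeq2, at that threshold and a log2 fold change beyond 1. In the DESeq2 run made here, *Igfbp7* (log2 fold change 1.28) and *Igfbp3* (-1.26) met both cut-offs, and *Igf2r* (-0.47) did not meet the fold threshold. With 3 libraries a group, an exact permutation test cannot go below a two-sided p of 0.1. Exon and coding lengths and mm9 coordinates come from GENCODE, and upstream windows from RefSeq. No pair of libraries within a group was a repeat (chi-square per degree of freedom 7.59 to 36.4), and pairs across the groups were not checked. The count test was checked on simulated counts. The alternatives were DESeq2, RLE, upper-quartile and total count scaling, 2 other filters, a robust fit, removal of 19 skeletal muscle genes, the replicate number as a block, the fold threshold, other lengths and each library left out.

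The 9 genes and all lists were chosen with earlier results of these data known. The text names the 9 genes, *Mkx*, called genes of the pathway lists, the 5 profiles most like *Igfbp7*, and marker sums, from which 1 listed gene was left out and is not reported here. *Ghr*, *Socs3*, *Irs1*, *Grb10*, *Igf2*, *Insr*, *Kazald1*, *Htra1*, *M6pr*, *Igf2bp3*, *Airn*, *Polr2b*, *Tnmd*, *Scx*, *Erg*, *Pecam1*, *Cdh5*, *Vwf*, *Esam*, *Emcn*, *Tek*, *Col1a1*, *Col1a2*, *Col2a1*, *Chad*, *Ucma*, *Acan* and *Matn3*, and the within-library ratios and shares, were chosen after their values were seen.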

Additional observations from a re-analysis of the deposited data

How the results depend on the processing

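*Igfbp7* kept its direction and its call in all 15 alternative settings run for it, with log2 fold changes of 1.25 to 1.55 and adjusted p up to 0.0185. Of the other axis genes, *Igf1*, *Igf1r*, *Igf2r*, *Igfbp2*, *Igfbp3*, *Igfbp4* and *Igfbp6* kept their direction in all 15. *Igfbp5* turned to -0.14 without WT replicate 1 and -0.045 without Mkx-/- replicate 3, in a range up to 0.22 over the libraries left out. The number of axis genes called higher was 1, and 2 with total count scaling. The number called lower was 0, 2 with DESeq2 and 1 without a filter beyond 1 count, and over the fits that left out a library it was 0 to 1. At an unadjusted p under 0.05, 2 axis genes were lower and 2 higher in edgeR.

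Over all genes, 463 were higher and 329 lower. DESeq2 gave 768 and 565, total count scaling 1358 and 197, no filter beyond 1 count 970 and 594, and a log2 fold change also beyond 1 gave 275 and 193. Leaving out a library gave 117 (without WT replicate 3) to 539 higher and 127 to 439 lower genes, with the highest counts without WT replicate 1. In the pathway lists 2 genes were higher and 1 lower. Here DESeq2 gave 7 lower, total count scaling 5 higher and 0 lower, no filter beyond 1 count 4 higher and 5 lower, the fold threshold 0 and 0, and leaving out a library 0 to 2 higher and 0 to 1 lower. By WT level per kb, 6 axis genes changed rank with coding length and 4 with the longest transcript. The cause of these moves was not tested.

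The replicate numbers did not pair the libraries. The correlation of deviations from the group means was 0.033, -0.28 and 0.37 for numbers 1, 2 and 3, and not every library correlated best with its own number. With the replicate number as a block, 264 genes were higher and 170 lower, 1 pathway gene (*Stat5b*) was higher and 0 were lower, and *Igfbp7* kept its call (adjusted p = 0.0157).

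The axis gene with the fewest counts, *Igfbp2*, had 43 to 159 per library, and its coefficients of variation between libraries were 30.0% in WT and 70.6% in Mkx-/- tendons.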

Other observations

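In the 2 lists not described above, 0 genes passed edgeR's test at an adjusted p under 0.05, 1 had an unadjusted p under 0.05, and 0 passed in DESeq2. All 4 genes of mannose 6-phosphate sorting, the route by which lysosomal enzymes are tagged and bound, had positive log2 fold changes, with a median of 0.19, where *Igf2r*, the large receptor of that route, had -0.46. The small receptor gene *M6pr* had 27.8, 27 and 32.5 CPM in WT and 30.6, 40.0 and 38.4 CPM in Mkx-/- libraries (log2 fold change 0.32, adjusted p = 0.240 in edgeR), so its groups overlapped. Of the IGF2 mRNA-binding proteins, *Igf2bp3* was low, at 1.97, 2.75 and 2.24 CPM in WT and 3.39, 4.0 and 3.49 CPM in Mkx-/- libraries, and every Mkx-/- library was above every WT library (log2 fold change 0.65, adjusted p = 0.151 in edgeR).

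The summed level of 11 macrophage and leukocyte markers was 516 to 564 CPM in WT and 326 to 393 CPM in Mkx-/- libraries, with 0 of the 11 higher. By edgeR 3 of them passed as lower, where 2.26% of all genes passed as lower, and by DESeq2 4, where 3.58% did. The summed level of 19 skeletal muscle markers was 108 to 476 CPM in WT and 650 to 3408 CPM in Mkx-/- libraries, with 18 of the 19 higher. By edgeR 4 of these muscle markers passed and by DESeq2 10. Tendon markers, 10 in number, summed to 382758 to 525460 CPM in WT and 245943 to 340869 CPM in Mkx-/- libraries, with 3 of the 10 higher. *Col1a1* and *Col1a2* made up most of that sum. In edgeR 1 tendon marker passed as higher and 1, *Mkx*, as lower, and in DESeq2 2 were higher and 4 lower. The summed level of 9 cartilage markers was 1468 to 1650 CPM in WT and 1988 to 2316 CPM in Mkx-/- libraries, and *Matn1* was at 0 in all of them. *Col2a1* and *Chad* made up most of that sum and passed in neither tool. Of the 7 tested, 3 passed as higher in edgeR, where 3.18% of all genes did, and the same 3 in DESeq2. These were *Ucma*, *Acan* and *Matn3*, with log2 fold changes of 3.47, 2.20 and 1.45 in edgeR. Osteoblast markers summed to 2.91 to 5.37 CPM in WT and 6.59 to 7.29 CPM in Mkx-/- libraries, adipocyte markers to 2.72 to 3.70 and 2.66 to 5.34 CPM, and epidermal markers to 3.07 to 12 and 15.9 to 20.7 CPM. The part of these lists in the axis results was not tested.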
